A study of Homo sapiens with 3 samples.

Results

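The p53 feedback and target genes described here were 9 genes chosen by symbol: the p53 inhibitors MDM2 and MDM4, and the p53 target genes ZMAT3, SESN1, BTG2, GADD45A, CCNG1, RRM2B and XPC, whose products act in arrest, stress signalling or repair. They are 9 of the 18674 genes used, and they occupy 14 RefSeq transcript rows. Poly-A RNA was sequenced from A2780, a cell line that came from an ovarian tumour of undifferentiated histology, in 3 libraries. Cells with the empty pBABE vector served as controls (1 library). Cells stably expressing miR-181a from outside gave 1 library each for p181a#1, called pool 1, and p181a#2, called pool 2. The submitters' labels describe these cells as polyclonal pools in one field and as clones in another, so p-values measure the spread between 2 libraries that may not be fully independent cultures. In the main test values were used as deposited, so this spread also holds any difference in scale between the pools. The vector library has no replicate. All cells share the A2780 background, and no agent that damages DNA is named in the labels.

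The transcription factor p53 is held at a low level in unstressed cells by MDM2, a ubiquitin ligase that marks it for degradation, and by MDM4, a relative of MDM2 that binds the activation domain of p53. When DNA is damaged this restraint is lifted, and p53 induces genes that halt the cell cycle, repair DNA or kill the cell, together with MDM2 itself, which closes a negative feedback loop. A2780 is commonly used as an ovarian cancer line with an intact p53 response.

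Target recognition by a microRNA rests mainly on its seed, bases 2 to 8 of the mature strand, shown in capitals from RefSeq (GRCh38.p14).
hsa-miR-181a-5p: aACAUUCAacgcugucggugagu
Each gene was represented by the 3 prime UTR of its canonical GENCODE transcript on GRCh37, the same assembly as the hg19 build used by the authors, and that UTR was searched on the transcript's own strand for TGAATGT (opposite bases 2 to 8), for the same letters followed by A (TGAATGTA, called an 8mer) and for GAATGTA (opposite bases 2 to 7 and followed by A). A GAATGTA inside an 8mer was not counted again. Of the 9 genes, 6 held at least 1 match. The 6 matches of CCNG1, MDM2, MDM4, SESN1 and BTG2 follow, each in a stretch of 22 bases with capitals marking the match, to show where letters of these genes pair with the seed.
CCNG1, chr5:162871682-162871703, plus strand: tccatggcagttagTGAATGTA
MDM2 first match, chr12:69237106-69237127, plus strand: tatagttaatgtatTGAATGTt
MDM2 second match, chr12:69238044-69238065, plus strand: aaaaggcacaagtcTGAATGTg
MDM4, chr1:204527057-204527078, plus strand: taacaacaacttatTGAATGTg
SESN1, chr6:109305810-109305831, minus strand: ggatatgtgatggcTGAATGTt
BTG2, chr1:203278651-203278672, plus strand: tgtttttatatggaaGAATGTA
RRM2B held 1 GAATGTA, which is not printed, and ZMAT3, GADD45A and XPC held none. The only 8mer was that of CCNG1. Long UTRs hold such letters often: of genes whose 3 prime UTR was within 25% of the length of that of MDM2 (5695 bases), 63.7% held a match, and the share was 73.8% for MDM4 (8438 bases), 71.0% for ZMAT3 (7794 bases), 44.5% for SESN1 (3235 bases), 50.3% for RRM2B (3631 bases), 32.6% for BTG2 (2164 bases), 22.7% for CCNG1 (1346 bases), 14.7% for XPC (794 bases) and 10.3% for GADD45A (560 bases). A match is a description of letters and not a measured binding site.

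Values are the authors' coverage of each transcript, a median over windows along its length, so levels of different genes can be set side by side. No read counts accompany it, so depth is unknown, and coverage summed to 719263 to 907092 per library. The vector library showed signal where the pools had none: 62.9% of the 8822 transcripts listed at 0 in both pools were above 0 there, and the median over the 8822 was 1.15. Of 10 ovarian carcinoma and epithelial markers, 8 were at 0 in both pools. PAX8, MUC16, EPCAM, KRT19 and ESR1 had coverage of 4.71, 0.649, 66.3, 17.4 and 104 with the vector, whereas either pool had 0, and WT1, KRT7 and CDH1 were at 0 in all 3 libraries. KRT8 and KRT18 were the 2 that had coverage in the pools. The 12 markers of other cell types (blood, endothelial and stromal) summed to 698 with the vector, 1470 in pool 1 and 1140 in pool 2, and 6 were at 0 in both pools. Of these 12, 9 were tested, 7 stood below the vector library in both pools and 6 fell by limma. The 2 above it were stromal, the collagen gene COL3A1 (249, 986 and 717) and DCN (144, 480 and 420), and neither passed. Other stromal markers were below it, DPT (14.4, 0 and 0), which fell by limma, and COL1A1 (7.41, 0 and 0.706), which did not pass. PDGFRB, which was not tested, had 1.08, 4.19 and 1.92. The part of this vector signal in the results was not tested. Beside several genes stands the share of the 8822 silent transcripts whose vector value was as high.

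Of the 9 genes, 8 stood above the vector library in both pools as deposited, and RRM2B stood below it in both. The 8 became 3 when the pools were shifted by the median change of genes with a pool mean above 50, and 5 with a shift at the level of the 9. Of the 12552 genes tested, 44.6% stood above in both pools and 41.8% below, and among the 9039 with a mean over the pools within the range of the 9 genes the shares were 54.6% and 27.8%. By limma 1 of the 9 rose, ZMAT3, and none fell, at an adjusted p of 0.05. Over all tested genes 1.00% rose and 21.7% fell, and among the 9039 within the range of the 9 genes 1.21% rose and 3.57% fell. At an unadjusted p under 0.05 the limma counts of the 9 were the same, 1 and 0, where 5.39% of all tested genes rose and 27.8% fell. ZMAT3 was also the only one at least 1 log2 unit higher in both pools, against 2.53% of tested genes, and none was as much lower, against 27.3%. The median log2 fold of the 9 was 0.60 in pool 1 and 0.28 in pool 2, where all tested genes had medians of 0.24 and -0.12 and those within the coverage range of the 9 had 0.44 and 0.09.

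**Figure D1:**
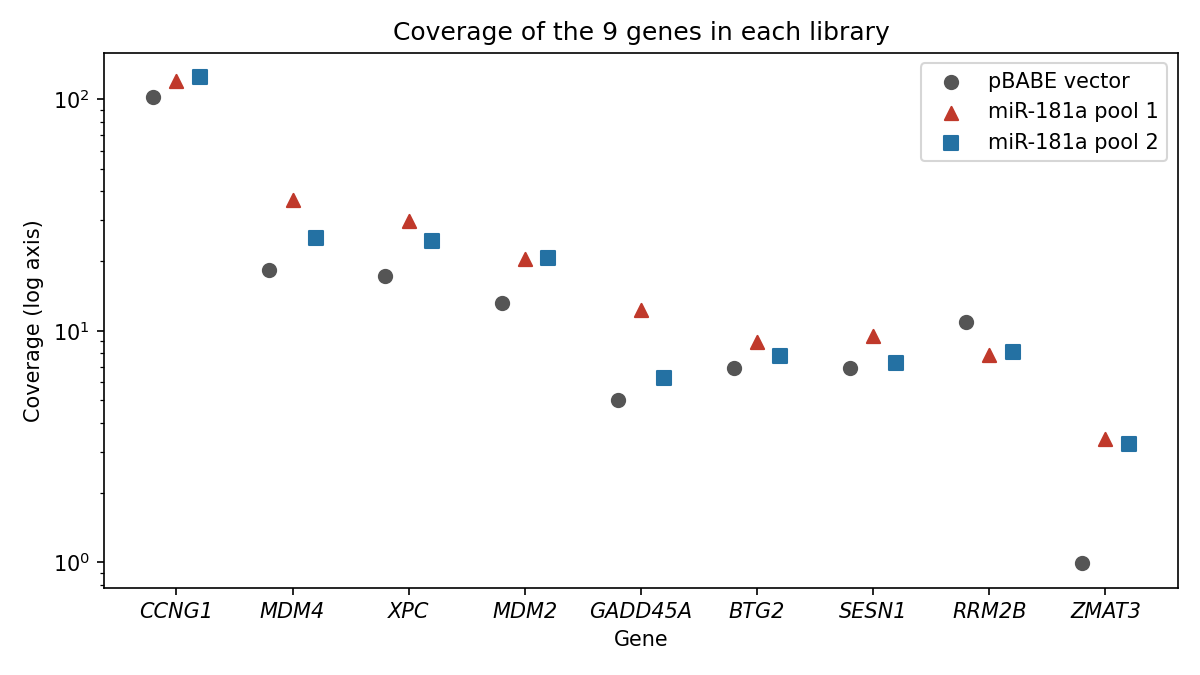
Coverage on a log axis for each of the 9 genes in the vector library (circles), pool 1 (triangles) and pool 2 (squares), ordered by the mean of the pools. Circles lie below both other symbols in 8 genes and above them in RRM2B, and CCNG1 at 102 to 124 stands far above the rest.

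In order of level over the pools, CCNG1 came first with a mean of 122, followed by MDM4 (31.0), XPC (27.1), MDM2 (20.6), GADD45A (9.31), BTG2 (8.38), SESN1 (8.34), RRM2B (7.96) and ZMAT3 (3.31). The pool values of MDM4 and XPC overlapped, and so did those of GADD45A, BTG2, SESN1 and RRM2B with their neighbours in this order. CCNG1, MDM2 and ZMAT3 did not overlap with a neighbour. RRM2B held the fifth place, directly after MDM2, in the vector library and in pool 2, and the eighth in pool 1 and by the mean of the pools.

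MDM2 (chromosome 12, 69201957 to 69239324 on GRCh37), the ubiquitin ligase of p53, had a coverage of 13.2 in vector cells, 20.5 in pool 1 and 20.6 in pool 2. The pools were alike, 20.6 ± 0.076 (SD, n = 2), and both lay above the vector value. Their log2 difference, pool 2 minus pool 1, was 0.01, where the median of genes of like pool mean was -0.33. The log2 fold was 0.60 (SE 0.25), which did not pass (limma adjusted p = 0.26). Other annotated genes share exon bases with MDM2, an lncRNA on the opposite strand over 10.5% of the transcript among them, and the protocol in the labels describes no step that marks the strand, so their reads cannot be told apart.

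MDM4 (chromosome 1, 204485507 to 204527248), which binds p53 and pairs with MDM2, had 18.3 in vector cells, 36.8 in pool 1 and 25.2 in pool 2. Both pools were above the vector library, and pool 1 was farther from pool 2 than the vector value was from pool 2. The log2 fold was 0.71 (SE 0.38, limma adjusted p = 0.32). The coverage of MDM2 divided by that of MDM4 within a library, a ratio that no scaling of libraries alters, was 0.721 in vector cells, 0.557 in pool 1 and 0.817 in pool 2. The vector value lay between the pools, so the balance of these inhibitors had no shared direction.

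CDKN1A, the p21 inhibitor of cyclin-dependent kinases and the best known arrest target, had 14.6 in vector cells, 19.5 in pool 1 and 15.0 in pool 2 (log2 fold 0.22, SE 0.34, limma adjusted p = 0.68).

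ZMAT3 (chromosome 3, 178677909 to 178790003) encodes an RNA-binding zinc finger protein that is induced by p53. Its coverage was 0.99 in vector cells, 3.40 in pool 1 and 3.23 in pool 2. As deposited the pools were again alike and both above the vector value. Their log2 difference, pool 2 minus pool 1, was -0.06, where genes of like pool mean had a median of -0.33. The log2 fold of 1.12 (SE 0.03) was the largest of the 9 and passed (limma adjusted p = 0.0035), with the second transcript row at 0.99, 3.40 and 3.21. This SE was the smallest of the 9 and depends on the variance trend of the fit and on the unscaled difference between the pools. On the same unscaled values without that trend, ZMAT3 passed less clearly (limma adjusted p = 0.037). With a mean of 3.31 in the pools it was also the lowest of the 9, and 51.0% of the silent transcripts had a vector value at least as high as its own. Its mean over the 3 libraries cleared the low-value filter of 2.44 only through the pools, and with no filter it passed as well (limma adjusted p = 0.011). The call ended when the pools were shifted by the median change of highly covered genes, those with a pool mean over 50 (log2 fold 0.65, limma adjusted p = 0.23), and with that shift but no variance trend it passed (limma adjusted p = 0.037).

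**Figure D2:**
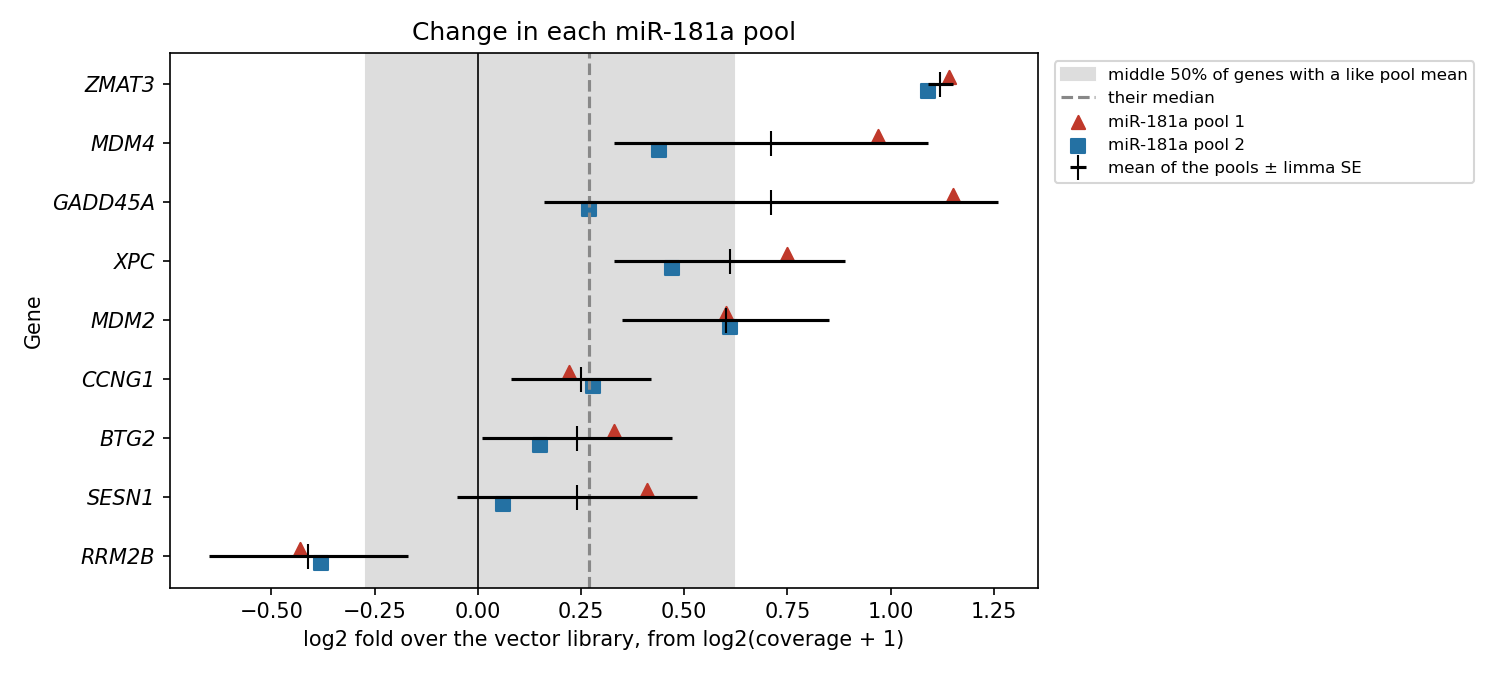
Log2 fold over the vector library, from log2(coverage + 1), for each gene in pool 1 (triangles) and pool 2 (squares), with the mean of the pools and its limma standard error (bars). The shaded band spans the quartiles of the 9039 genes of like pool mean, from -0.27 to 0.62, with their median of 0.27 dashed, and ZMAT3 lies to the right of the band in both pools and RRM2B to its left.

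Among the arrest genes, CCNG1 (chromosome 5, 162864575 to 162873157), an atypical cyclin that brings the phosphatase PP2A to MDM2, had 102 in vector cells, 119 in pool 1 and 124 in pool 2. It was the most abundant of the 9 in every library. Its log2 fold was 0.25 (SE 0.17, limma adjusted p = 0.40). The gene with the single 8mer for miR-181a was not lower in either pool as deposited. Genes with a pool mean above 50, as it had, showed a median log2 fold of 0.47 (quartiles 0.23 and 0.71). The fold of CCNG1 was -0.22 when shifted on those genes, -0.01 when shifted at the level of the 9, and 0.67 with library medians set equal. Whether miR-181a acts on CCNG1 was not tested. The 2 transcript rows of CCNG1 had the same values in the pools and different ones in the vector library, 98.1 and 102.

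BTG2 (chromosome 1, 203274619 to 203278730), an antiproliferative protein that recruits the CCR4-NOT deadenylase, had 6.92 in vector cells, 8.98 in pool 1 and 7.79 in pool 2. Its log2 fold was 0.24 (SE 0.23, limma adjusted p = 0.52). GADD45A (chromosome 1, 68150884 to 68154017), a stress sensor that acts on stress kinases and on the cell cycle, had 5.01, 12.4 and 6.26. Its value in pool 1 was far above both other libraries, and pool 2 was nearer to the vector library than to pool 1. The log2 difference of pool 2 minus pool 1 was -0.88, and 2.85% of genes of like pool mean had a difference as low, where the median was -0.33. Its log2 fold was 0.71 (SE 0.55, limma adjusted p = 0.44), made up of 1.15 in pool 1 and 0.27 in pool 2.

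SESN1 (chromosome 6, 109305512 to 109416049), a sestrin that restrains growth signalling through mTORC1, had 6.88 in vector cells, 9.45 in pool 1 and 7.23 in pool 2. Pool 2 was close to the vector value, with a log2 fold of 0.06, and over both pools the fold was 0.24 (SE 0.29, limma adjusted p = 0.60). Vector values as high as those of BTG2 and SESN1 were found in 22.2% and 22.3% of the silent transcripts, and one as high as that of GADD45A in 28.1%.

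The binding motif of p53 was sought by its consensus, 2 abutting 10-base copies, in the 14 RefSeq promoter windows of 300 bases (GRCh38.p14) given for 7 of the 9 genes (BTG2, CCNG1, MDM2, MDM4, SESN1, XPC and ZMAT3). The 4 core bases of both copies had to match and up to 3 of the 12 outer bases could differ, and since the consensus reads the same on both strands a single search covers them. The only match was in SESN1, with 3 mismatches, 49 bases before a start site. It is shown because SESN1 is the only one of these 7 genes with such a stretch in these windows, the 20 motif bases in capitals. Of the 35116 promoter windows of all genes, 0.427% hold one. Motifs outside the windows, or with a gap between the copies, were not sought, so the other genes may hold them.
SESN1 promoter, chr6:109009013-109009042 on GRCh38.p14, minus strand: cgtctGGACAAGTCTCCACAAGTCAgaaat
The match describes letters in this window alone.

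Of the repair genes, XPC (chromosome 3, 14186647 to 14220121), which recognises distorted DNA at the start of nucleotide excision repair, had 17.3 in vector cells, 29.8 in pool 1 and 24.3 in pool 2. Both pools lay above the vector library, and the second row gave nearly the same values, 17.2, 29.4 and 23.5. The log2 fold was 0.61 (SE 0.28, limma adjusted p = 0.28). Exons of the antisense gene XPC-AS1 cover 30.0% of the transcript, and their reads cannot be told apart from those of XPC. The coverage of XPC divided by that of DDB2, another damage sensor of this pathway and p53 target, was 0.930, 0.907 and 0.939 in vector cells, pool 1 and pool 2, so these sensors kept nearly the same proportion. Against RAD23B, a partner that stabilises XPC, the ratio was 0.280, 0.297 and 0.368. Both DDB2 and RAD23B were chosen for these ratios after the values were seen.

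RRM2B encodes p53R2, the small subunit of ribonucleotide reductase that supplies nucleotides for repair outside S phase. It lies on chromosome 8. Its highest row had 10.9 in vector cells, 7.83 in pool 1 and 8.09 in pool 2. The log2 difference of pool 2 minus pool 1 was 0.04, where genes of like pool mean had a median of -0.33. As deposited the pools were alike at 7.96 ± 0.18 (SD, n = 2) and below the vector value. The other rows pointed the same way, with 11.1, 6.61 and 7.15 in one and 10.9, 7.52 and 7.79 in the other. These rows overlap and share reads, so they are not independent. The log2 fold of -0.41 (SE 0.24) did not pass (limma adjusted p = 0.35). The vector value exceeded the pool mean by 2.91, and 37.5% of the silent transcripts had a vector value at least that high.

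As deposited, RRM2B was below the vector library in both pools and the subunits used in S phase were above it, though none of these genes passed. RRM2, the small subunit of dividing cells, had 80.7 in vector cells, 150 in pool 1 and 116 in pool 2 (log2 fold 0.70, limma adjusted p = 0.24), and RRM1, the large subunit, had 46.4, 81.2 and 77.2 (log2 fold 0.76, limma adjusted p = 0.13). Both had pool means above 50, and genes at that level had a median log2 fold of 0.47 and an upper quartile of 0.71. The coverage of RRM2B relative to RRM2 was 0.135 in vector cells, 0.0523 in pool 1 and 0.0697 in pool 2. Relative to RRM1 it was 0.234, 0.0965 and 0.105, and relative to MDM2 0.825, 0.382 and 0.393. All 3 ratios were lower in both pools than in the vector library and do not depend on how the libraries are scaled, but the vector excess bears on RRM2B as given above, and these pairs were chosen after the values were seen.

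Ratios to family members, also chosen after the values were seen, showed how evenly relatives moved. CCNG1 was 6.41, 6.10 and 7.63 times as high as CCNG2, a related cyclin, in vector cells, pool 1 and pool 2, and SESN1 was 0.539, 0.393 and 0.476 times as high as SESN2. BTG2 stood at 0.745 times BTG1 in the vector library and at 1.27 and 1.71 times in the pools, but at 0.340 times BTG3 in the vector library and at 0.300 and 0.264 times in the pools. GADD45A stood at 0.647 times GADD45B in the vector library and at 1.28 and 0.995 times in the pools. The direction for BTG2 thus depended on the relative taken. The GADD45A ratio was higher in both pools, the SESN1 ratio was lower in both, and the CCNG1 ratio had no shared direction.

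Directions of single genes depended on the scaling. Medians of the log2 fold over all tested genes were 0.24 in pool 1 and -0.12 in pool 2, and over the 2124 genes whose pool mean exceeded 50 they were 0.64 and 0.30. With library medians set equal, 8 of the 9 genes rose by limma, where 50.6% of all tested genes rose and 29.5% fell, and RRM2B had a log2 fold of 0.01 (limma adjusted p = 0.97). With pools shifted on genes with a pool mean above 50, none rose and RRM2B fell (log2 fold -0.88, limma adjusted p = 0.0011), where 5.66% of all tested genes rose and 46.1% fell, and SESN1, BTG2 and CCNG1 turned to -0.24, -0.23 and -0.22, none of them past the test. With pools shifted on genes at the level of the 9 themselves, chosen after the data were seen, RRM2B fell (log2 fold -0.67, limma adjusted p = 0.015), where 13.0% of all tested genes rose and 40.2% fell, ZMAT3 had 0.85 (limma adjusted p = 0.10), and SESN1, BTG2 and CCNG1 lay at -0.03, -0.02 and -0.01. In these 3 scaled fits limma set its prior degrees of freedom to infinity, so each p-value rests on the spread over all genes and not on the gene's own. Repeated without a variance trend, again with an infinite prior and after the data were seen, the scaled fits called 8 of the 9 higher with equal medians, where 47.2% of all tested genes rose and 29.3% fell. The shift on genes with a pool mean above 50 then left ZMAT3 higher and RRM2B lower, where 3.59% of all tested genes rose and 42.9% fell, and so did the shift at the level of the 9, where 8.29% rose and 38.1% fell. Each scaling moves every gene by the same amount in a library, so the order of the 9 is the same in all of them by construction. The mean folds of MDM2, MDM4, ZMAT3, GADD45A and XPC lay above 0 in each of the 4 scalings. The shift on genes with a pool mean above 50 was 0.64 in pool 1 and 0.30 in pool 2. It put MDM2 below the vector library in pool 1 (unshifted fold 0.60) and GADD45A in pool 2 (unshifted fold 0.27).

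**Figure D3:**
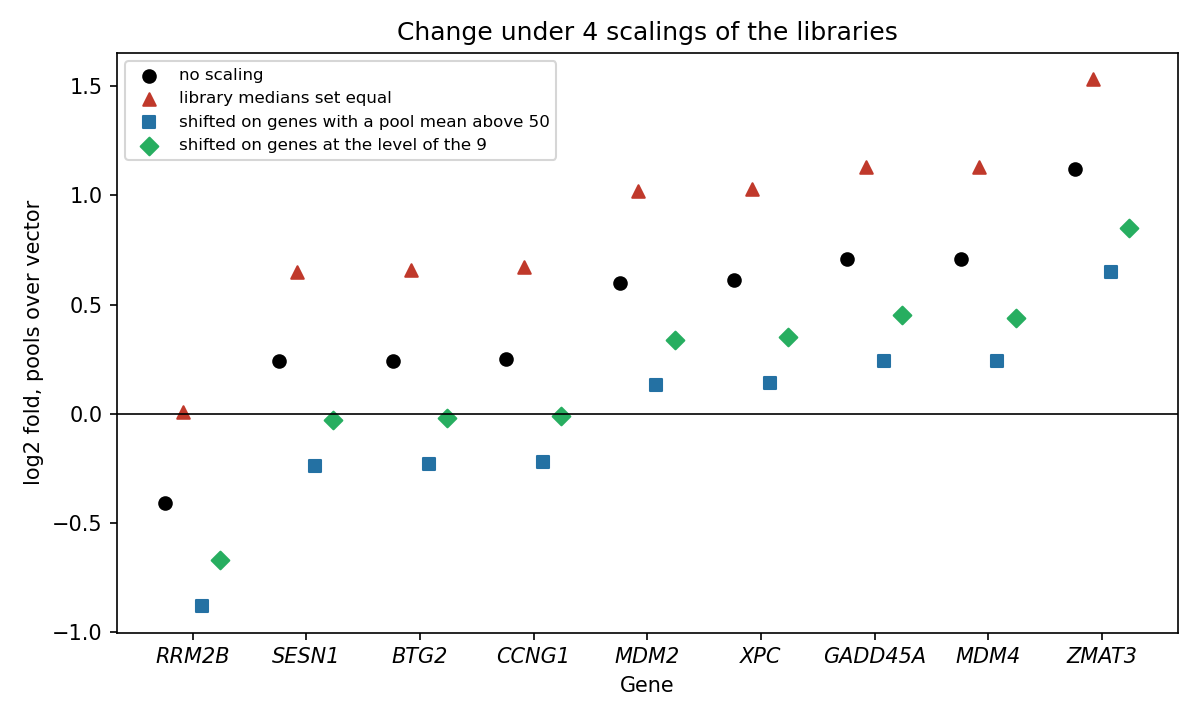
Mean log2 fold of the pools over the vector library for each of the 9 genes under no scaling (circles), equal library medians (triangles) and shifts on genes with a pool mean above 50 (squares) or at the level of the 9 (diamonds). The order of the genes is fixed by construction, and SESN1, BTG2 and CCNG1 lie on either side of 0 by scaling, while RRM2B reaches 0.01 with equal medians.

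Other genes of the pathway were taken from lists that group regulators of p53, other p53 targets, and relatives or partners of the 9 genes. Of 22 regulators 21 were tested, 3 fell and none rose by limma (1 at an unadjusted p under 0.05), and 11 stood above the vector library in both pools (median log2 fold 0.12). Of 32 other targets measured, 28 were tested, 4 fell and none rose (1 at an unadjusted p under 0.05), and 15 stood above in both pools (median 0.22). Of 22 relatives and partners 21 were tested, 2 fell and none rose (2 at an unadjusted p under 0.05), and 13 stood above in both pools (median 0.29). These counts are to be read beside the 1.00% that rose (5.39% at an unadjusted p under 0.05), 21.7% that fell and 44.6% above in both pools among all tested genes, and beside their median of 0.07.

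**Figure D4:**
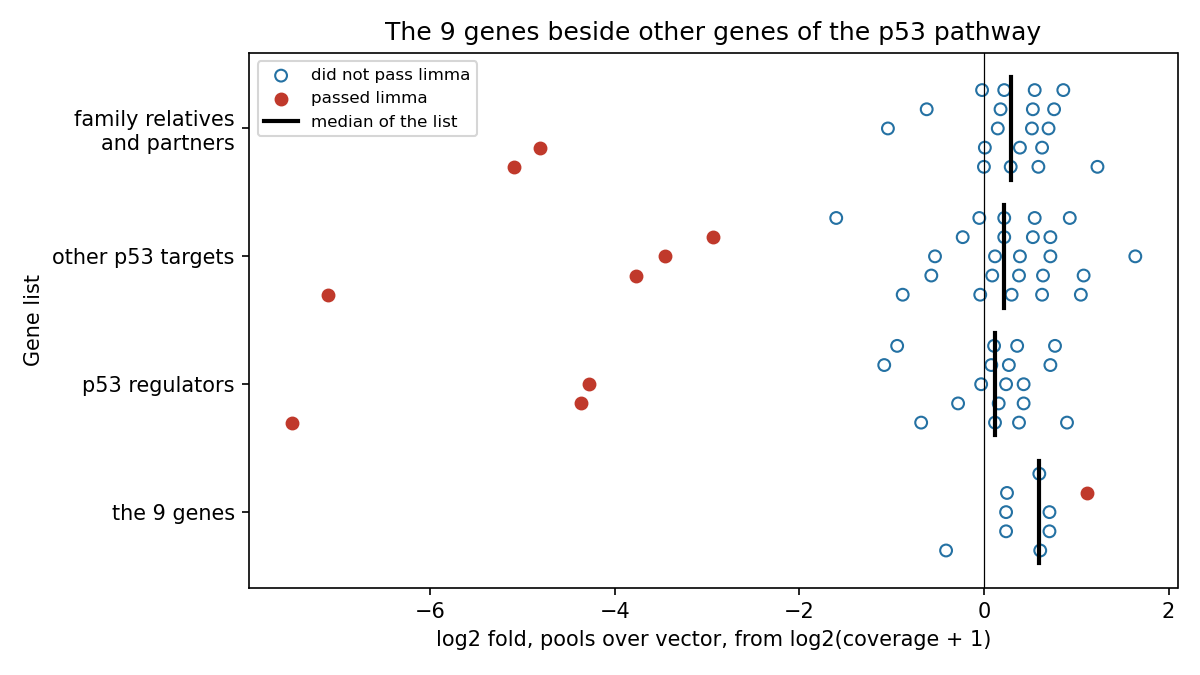
Mean log2 fold of the pools over the vector library for each tested gene of the 9 genes and of the 3 other lists, filled where limma passed at an adjusted p of 0.05, with a black bar at each list's median. The passed genes of the other lists all lie at -2.93 or lower, and ZMAT3 is the single passed gene above 0.

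The regulators that fell were the p53 relatives TP73 and TP63 and CDKN2A. CDKN2A encodes the MDM2 inhibitor ARF and also a cyclin-dependent kinase inhibitor. The row tested is a transcript of the latter, so its values are not a measure of ARF. TP73 had 301 in vector cells, 1.05 in pool 1 and 0.359 in pool 2 (log2 fold -7.50, limma adjusted p = 0.011), CDKN2A had 44.1, 1.49 and 0.897 (log2 fold -4.37, limma adjusted p = 0.012), and TP63 had 18.4 and was at 0 in both pools. Not every transcript row was lower by 1 log2 unit: 2 of 4 rows were for TP73, 2 of 3 for CDKN2A and 5 of 6 for TP63. With the row picked by its pool mean alone, none of the regulators fell, since none of these 3 then passed the filter. Both pools were under the filter value of 2.44 in all 3, so they were tested only through their vector values and could only be called lower. Vector values as high were found in 0.34% (TP73), 3.16% (CDKN2A) and 8.97% (TP63) of the silent transcripts. TRIM24, a ubiquitin ligase for p53, had 25.7, 12.99 and 12.7 and did not pass (log2 fold -0.94, limma adjusted p = 0.17).

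The targets that fell were the death receptor gene FAS, KITLG, the BH3-only gene PMAIP1 and SFN, which encodes 14-3-3 sigma. FAS had 223 in vector cells, 0.434 in pool 1 and 0.826 in pool 2 (log2 fold -7.11, limma adjusted p = 0.0057) and was lower by at least 1 log2 unit in all 3 of its rows, though their vector values ran from 4.67 to 223. SFN had 18.2, 0.1 and 0.803 (log2 fold -3.77, limma adjusted p = 0.040), KITLG 15.5, 0.446 and 0.546 (log2 fold -3.46, limma adjusted p = 0.00098), and PMAIP1 7.23, 0.163 and 0 (log2 fold -2.93, limma adjusted p = 0.0069). KITLG met the size rule in 1 of 2 rows. All 4 were under 1 in both pools, so they too were tested only through their vector values and could only be called lower. Vector values as high were found in 0.465% (FAS), 9.15% (SFN), 10.8% (KITLG) and 21.5% (PMAIP1) of the silent transcripts. With the row picked by its pool mean, FAS (log2 fold -3.62, limma adjusted p = 0.0028) and SFN still fell, and KITLG and PMAIP1 were not tested. TNFRSF10B, a TRAIL receptor, and PLK2, a polo-like kinase, were at least 1 log2 unit higher in both pools and did not pass (limma adjusted p = 0.095 and 0.17). APAF1, the core of the apoptosome, had 22.8, 7.04 and 6.69, a log2 fold of -1.56 in pool 1 and -1.63 in pool 2, and did not pass either (log2 fold -1.60, limma adjusted p = 0.079). These 3 were named after their values were seen.

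Among relatives, GADD45G and BTG4 fell, from 33.1 and 27.1 in the vector library to 0 in both pools, which they could only do in one direction once they had passed the filter through the vector value. CNOT8, a deadenylase subunit of the complex that BTG2 recruits, had 20.4 in vector cells, 47.7 in pool 1 and 50.6 in pool 2 and did not pass (log2 fold 1.23, limma adjusted p = 0.076). TOB1, an antiproliferative relative of BTG2, had 27.1, 15.7 and 10.1 (log2 fold -1.04, limma adjusted p = 0.26). Nearest to MDM2 in the pair of pool folds, among the tested genes of these lists, were BTG3 (distance 0.113 log2 units), CNOT7 (0.168) and RPS27L (0.172), a likeness over only 2 differences that share the vector library.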

How the data were processed

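Poly-A RNA of A2780 cells was sequenced in 3 libraries. The authors aligned reads to hg19 and kept, for each gene, the median of a density profile in windows of 50 bp as its coverage signal, per the labels' protocols. Quantile normalization is named there, but quantiles of the 3 deposited coverage columns differ, so no common scaling was assumed. The sources used here name neither aligner nor annotation.

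Of 29156 rows, 308 with a blank vector value were left out, none of them of the 9 genes. Each gene was represented by its highest row, by the mean of all 3 libraries. Differences of log2(coverage + 1) were tested with limma 3.58.1 in R 4.3.3 (eBayes with a variance trend, Benjamini-Hochberg over 12552 genes, threshold 0.05) in genes whose mean exceeded 2.44, which drops the lowest 25% of genes with any coverage. A single residual degree of freedom lies between the pools and, without scaling, includes any difference in scale between them. The vector library, with no replicate, is taken to vary as the pools do. The fit was also run on simulated data in which all 3 libraries vary as the pools do, so that run does not test this assumption. The pseudocount of 1 understates changes of low genes.

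Every one of the 9 genes is named. From each of the 3 other lists the text names genes past the test and the 4 whose smaller pool fold was largest, and from all 3 CDKN1A and the 3 nearest to MDM2; a gene that this rule also names is not reported here. TNFRSF10B, PLK2, APAF1 and the genes used in ratios to the 9 (RRM1, RRM2, DDB2, RAD23B, CCNG2, SESN2, BTG1 and GADD45B) were named after their values were seen. The 9 genes and all lists were chosen with earlier results of these data known. Alternatives covered filter, scaling, pseudocount, row, blank values, variance trend and each pool left out.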

Additional observations from a re-analysis of the deposited data

How the results depend on the processing

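Depth is unknown, so no counting limit can be set, and the single vector library limits every comparison. No paired analysis was possible because the vector group has 1 library. Genes that rose and fell numbered 126 and 2725 overall. They numbered 278 and 5626 of 16737 tested with no filter, and 402 and 1476 of 8368 tested with a filter at the median. Of the 12552 genes, 6355 rose with library medians set equal. With pools shifted on genes with a pool mean above 50 the numbers were 710 and 5784, and with the shift at the level of the 9 genes 1635 and 5040. With blank vector values as 0, 232 rose. With the filter at the median and in every scaled fit, limma's prior degrees of freedom were infinite, so their p-values ignore each gene's own spread. The 3 scalings were therefore repeated without a variance trend, an alternative chosen after seeing the data, and the prior stayed infinite. There 5922 rose with medians equal, 451 rose and 5384 fell with the shift on genes above 50, and 1041 rose and 4786 fell with the shift at the level of the 9. Of the 9 genes 8 then rose with medians equal, and with either shift 1 rose (ZMAT3) and 1 fell (RRM2B). With the trend kept, 1 of the 9 genes rose with 6 alternatives (no filter, both pseudocounts, both other choices of row, blanks as 0), 8 with medians equal, and 0 with a filter at the median, which left 4 of them, or with either shift, where 1 fell. Unscaled and without a trend 1 rose. SESN1, BTG2, CCNG1 and CDKN1A turned to -0.24, -0.23, -0.22 and -0.26 with the shift on genes above 50 and to -0.03, -0.02, -0.01 and -0.05 with the shift at the level of the 9, and RRM2B to 0.01 with medians equal, with or without a trend.

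Among regulators, 2 rose with no filter, 13 rose and 5 fell with medians equal, 7 fell with the shift on genes above 50, and 3 rose and 7 fell with the shift at the level of the 9. With a pseudocount of 10, 1 rose, without a trend 2 rose, and with the row picked by pool mean 0 fell. Among other targets, 2 rose and 2 fell of 19 tested with a filter at the median, 16 rose with medians equal, 3 rose and 10 fell with the first shift, and 5 rose and 7 fell with the second. With the row picked by pool mean 2 fell, and without a trend 1 rose. Among relatives, 1 fell with a filter at the median, 16 rose with medians equal, 1 rose and 6 fell with the first shift, 4 rose and 4 fell with the second, and 1 rose without a trend. In the scaled fits without a trend, 10 regulators, 15 other targets and 14 relatives rose with medians equal. With the shift on genes above 50, 7 regulators fell, 2 targets rose and 9 fell, and 1 relative rose and 4 fell. With the shift at the level of the 9, 1 regulator rose and 6 fell, 4 targets rose and 8 fell, and 1 relative rose and 4 fell. These counts are to be read beside the shares of all tested genes. With medians equal 50.6% rose and 29.5% fell, with the shift on genes above 50 it was 5.66% and 46.1%, and with the other shift 13.0% and 40.2%. Without a trend the shares were 47.2% and 29.3%, 3.59% and 42.9%, and 8.29% and 38.1%, in the same order. Why the counts moved was not tested beyond the number of genes each filter left and the infinite prior. Leaving out a pool leaves no residual degrees of freedom. With pool 2 alone, 1 of the 9 genes was at least 1 log2 unit higher, and with pool 1 alone 2 were, the added one being GADD45A.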

Other observations

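The transcript rows of CCNG1 were identical in both pools and differed in the vector library, and this was common in the table. Among pairs of rows of one gene with the same value above 0 in pool 1 and the same in pool 2, 1946 of 2515 (77.4%) differed in the vector library. Among pairs identical in the vector library and pool 2, 87 of 655 (13.3%) differed in pool 1, and among pairs identical in the vector library and pool 1, 120 of 692 (17.3%) differed in pool 2. The XPC and RRM2B rows differed in all 3 libraries, and the ZMAT3 rows differed in pool 2 alone.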
